A study of Mus musculus with 9 samples.

Results

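The 10 genes described here regulate apoptosis in the follicle, and they were taken by symbol from the 52025 genes listed for each library of mouse ovary RNA. They comprise the survival genes Bcl2, Bcl2l1 and Mcl1, the pore-forming genes Bax and Bak1, the BH3-only genes Bcl2l11, Bbc3 and Pmaip1, the death receptor Fas and the p53 family member Trp63. To study the days on which follicles first form an antrum, ovaries of Kunming mice, an outbred strain, were profiled by RNA-Seq on postnatal day (PD) 14, 15 and 16, with 3 libraries for each day. The labels name no allele and no treatment for any group. Ovary is the labelled tissue, but granulosa cells are named as the source, whereas the study's methods describe collected ovaries. The study calls the ovaries of a day biologically independent. Whether they came from separate animals is not given in the sources used here, and the p-values measure the spread between these libraries.

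In bulk RNA, fewer cells of a type and less RNA per cell cannot be told apart. All 12 oocyte markers listed for this check, such as Zp3 with 263 to 416 FPKM, and all 6 stromal markers were above an FPKM of 1 in each of the 9 libraries, as were all 9 granulosa cell markers. The libraries therefore hold RNA of more cell types than the source label names. The summed oocyte markers ran from 1078 to 1336 FPKM on PD14, 1349 to 1440 FPKM on PD15 and 1011 to 1072 FPKM on PD16. Of 8 immune markers, 4 were above an FPKM of 1 in every library, and their sum ran from 20.0 to 22.4 FPKM on PD14, 24.9 to 29.9 FPKM on PD15 and 25.5 to 31.8 FPKM on PD16. Lyz2, a lysozyme of myeloid cells, carried this shift, and without it the sum was 11.4 to 12.9 FPKM, 11.9 to 14.0 FPKM and 12.2 to 13.6 FPKM on the same days. The summed stromal markers were at 490.2 to 553 FPKM on PD14, 406 to 487 FPKM on PD15 and 491 to 504 FPKM on PD16. Those of the endothelium were at 53.5 to 56.7 FPKM, 50.01 to 52.8 FPKM and 47.7 to 50.6 FPKM. The stromal sum was thus lower on PD15, and the endothelial sum on both later days, than in any PD14 library. On PD15, 4 of the 6 stromal markers were lower than on PD14 and 2 higher (Pdgfra and Tcf21, both by 0.09 on the log2 scale), and all 5 endothelial markers were lower on both days. No gene of these 2 lists was called in limma. At an unadjusted p under 0.05, the stromal list had 2, 0 and 1 of 6 genes (PD15 against PD14, PD16 against PD14, PD16 against PD15). In the same order, the endothelial list had 0, 2 and 0 of 5. The oocyte list had 3, 7 and 7 of 12, the granulosa cell list 5, 6 and 4 of 9 and the immune list 2, 1 and 0 of 5 tested. Of all tested genes, 14.7%, 22.8% and 14.1% passed this threshold. The granulosa cell markers summed to 2805 to 3476 FPKM on PD14, 2626 to 3017 FPKM on PD15 and 2823 to 3309 FPKM on PD16. Inha alone was at 1780 to 2629 FPKM, and the other markers did not move together. Against PD14, 2 were higher and 7 lower on PD15, and 4 higher and 5 lower on PD16. Inhba changed by -0.92 on PD15 and -1.04 on PD16 on the log2 scale, without a call, and Amh by 0.45 on PD15. Outside the stromal and endothelial lists, Amh, Bmp15 and Lyz2 rose by 0.47, 0.39 and 0.74 on the log2 scale on PD16 against PD14. Cyp19a1 fell by 0.84. In the order named, their adjusted p-values were 0.0223, 0.0331, 0.0286 and 0.0316 in limma. For Cyp19a1 the study reports the other direction by qRT-PCR of ovaries, with an increase on PD15 and PD16. Zp2 fell by 0.61 on PD16 against PD15 (adjusted p = 0.0427). The part of these shifts in the members' values was not tested.

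Follicles that do not ovulate are lost by atresia, and apoptosis of granulosa cells is its best known form. In the mitochondrial pathway, the survival proteins hold Bax and Bak1 inactive, BH3-only proteins bind the survival proteins or activate Bax and Bak1, and oligomers of Bax and Bak1 open the outer membrane so that cytochrome c activates caspases. Death receptors such as Fas reach the caspases from the cell surface, and p53 and its relative p63, the product of Trp63, induce several of these genes after DNA damage. In oocytes, p63 is known as the guardian that removes cells with damaged DNA.

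FPKM counts mapped fragments scaled by exon length and by library depth, so levels can be compared roughly between genes. For most members the length was that of all annotated exons together. Which transcripts of a gene were present was not tested. The libraries held 20.4 to 28.7 M mapped fragments, recovered from the smallest steps of the FPKM, and 14590 to 14923 genes exceeded an FPKM of 1. Mcl1 was the most abundant member with a mean of 51.4 FPKM over the 9 libraries, followed by Bax with 27.3, Bak1 with 17.6 and Bcl2l1 with 13.7 FPKM. The libraries of these 4 genes did not overlap with those of the next gene in the order. Bcl2l11 with 3.31, Bcl2 with 3.20 and Trp63 with 2.78 FPKM formed a lower step, in which neighbours overlapped. Bbc3 with 1.74 FPKM and Fas with 1.18 FPKM overlapped as well, and Pmaip1 was lowest with 0.356 FPKM.

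**Figure D1:**
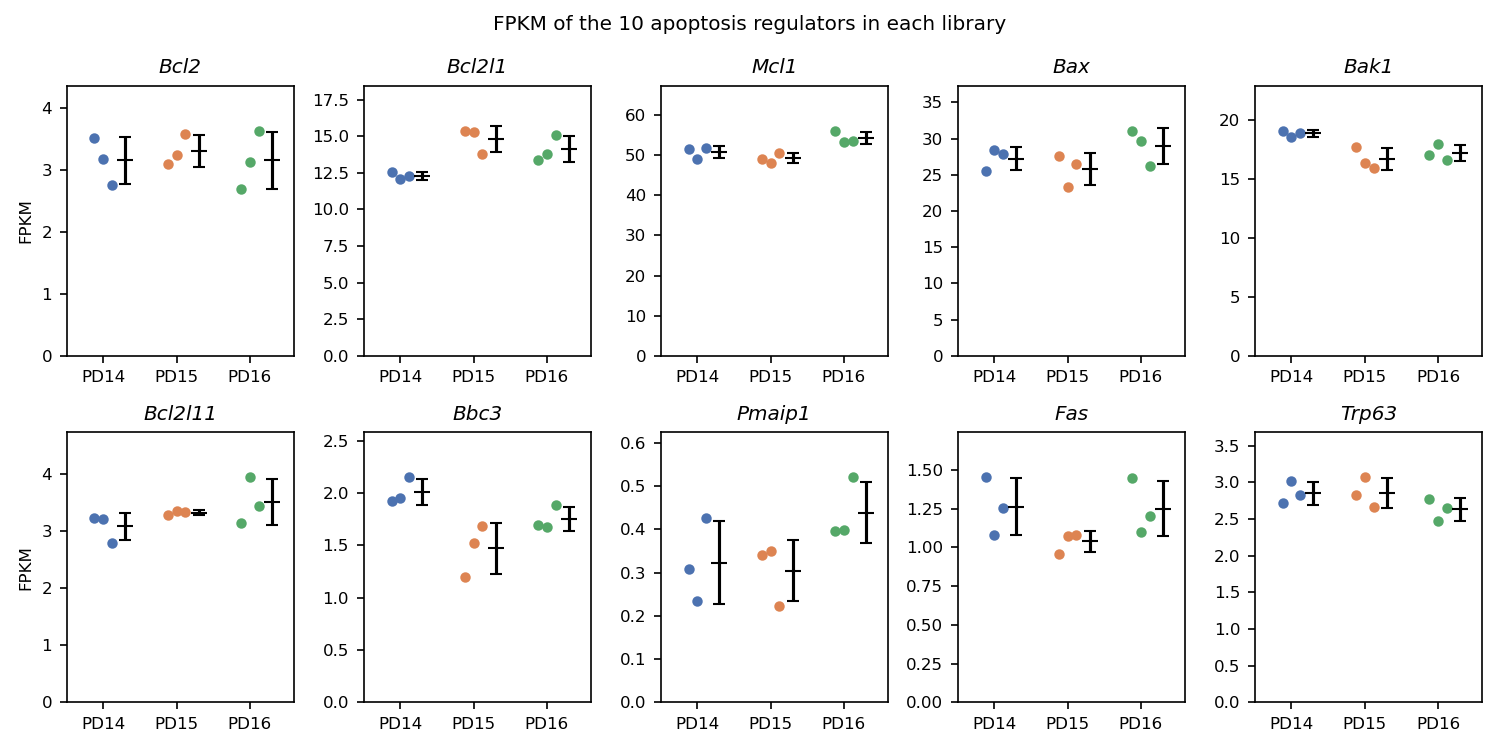
Each panel plots the FPKM (linear axis from 0) of a member in each library by day, with replicates 1 to 3 from left to right and the mean ± SD of a day beside them in black. Bcl2l1 lay higher and Bak1 and Bbc3 lower in each PD15 and PD16 library than in each PD14 library, and Bcl2, Bax and Trp63 overlapped between all days.

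No member differed between days at an adjusted p under 0.05 (limma on log2(FPKM + 1), two-sided, Benjamini-Hochberg adjustment over 15495 genes). Of the 10 members, 9 reached an average of more than 1 FPKM on some day and were tested, and Pmaip1 did not reach this level. The count of called members was 0 of 9 for PD15 against PD14, where 0.678% of all tested genes were called, 0 of 9 for PD16 against PD14, where 4.25% were called, and 0 of 9 for PD16 against PD15, where 0.729% were called. At these shares, a count of 0 among 9 genes lies near the background. At an unadjusted p under 0.05, 3 members differed between PD15 and PD14, 2 between PD16 and PD14 and 1 between PD16 and PD15, beside 14.7%, 22.8% and 14.1% of all genes. Counts were likewise 0 with voom, a weighting of counts within limma, on the recovered fragments. The 3 comparisons share libraries and are not independent of each other.

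The 95% intervals of the log2 changes had half-widths of 0.12 to 0.24, and over all members and comparisons they reached from -0.50 to 0.39. A change smaller than the half-width of its interval cannot be told from 0, and the missing calls do not show that levels were the same. The median log2 change of the tested members was -0.04 for PD15 against PD14, beside 0.01 for all genes. For PD16 against PD14 it was 0.00 beside 0.01, and for PD16 against PD15 it was 0.06 beside 0.01.

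**Figure D2:**
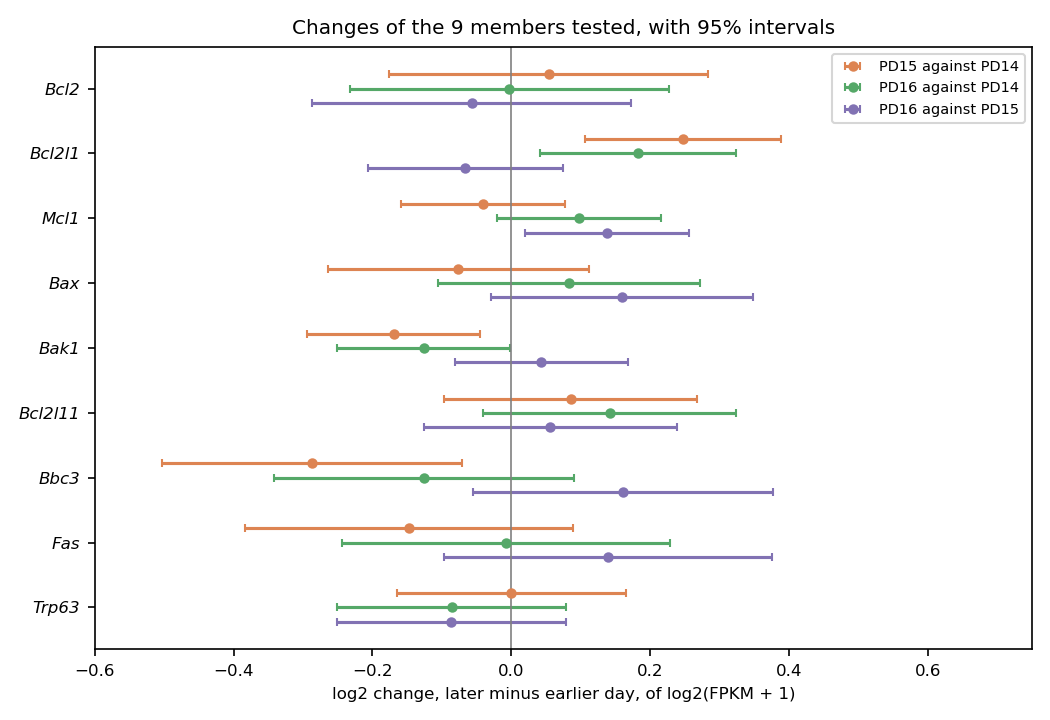
Points give the log2 change of log2(FPKM + 1), later minus earlier day, for the 9 members tested, and bars the 95% interval from limma, without adjustment for the number of genes. The intervals of Bcl2l1 and Bak1 lie on 1 side of 0 for PD15 and PD16 against PD14, that of Bbc3 for PD15 against PD14 and that of Mcl1 for PD16 against PD15.

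The separation of the libraries gave a second description. With 3 libraries against 3, the exact permutation test cannot go below p = 0.1, which is reached whenever the days do not overlap. Between PD15 and PD14, 4 of the 9 tested members did not overlap, beside 20.6% of all tested genes: Bcl2l1 and Bcl2l11 were higher and Bak1 and Bbc3 lower on PD15. Between PD16 and PD14, 4 of 9 did not overlap, beside 28.5% of all tested genes: Bcl2l1 and Mcl1 were higher and Bak1 and Bbc3 lower on PD16. Between PD16 and PD15, 2 of 9 did not overlap, Mcl1 and Fas, both higher on PD16, beside 19.6% of all tested genes. These counts are of 9 chosen genes and were not tested as a group.

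Over all 3 days, an exact permutation test of the share of the variance between days, which runs over all 280 groupings of the libraries and cannot go below p = 0.00357, gave p = 0.00714 for Bbc3, 0.0107 for Mcl1, 0.025 for Bcl2l1 and 0.0321 for Bak1. These 4 values are not corrected for the number of genes, and this exact test was not run over all genes, so no background share stands beside them. The other 6 members had values from 0.193 (Pmaip1) to 0.796 (Bcl2). With adjustment over all genes, the F-test of limma for any difference between days gave an adjusted p of 0.0995 for Bcl2l1, 0.184 for Bak1, 0.207 for Bbc3 and 0.26 for Mcl1.

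Among the survival genes, Mcl1 (chr3:95658788-95663176, plus strand) encodes a short-lived protein that restrains Bak1. Its FPKM was 51.5, 48.9 and 51.7 on PD14, 49.1, 48.1 and 50.6 on PD15 and 56.0, 53.4 and 53.6 on PD16. Each PD16 library lay above all PD14 and PD15 libraries, whereas PD14 and PD15 overlapped. The mean of PD16, 54.3 ± 1.48 FPKM (SD, n = 3), was 10.2% above that of PD15, 49.3 ± 1.29 FPKM. On the log2 scale this difference was 0.14 ± 0.05 (SE), with an adjusted p of 0.273 in limma. The value rests on 3601 to 4973 fragments per library, for which the counting error is at most 1.67%.

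Bcl2l1 (chr2:152780668-152831728, minus strand) encodes Bcl-xL, which restrains Bax and Bak1. It was at 12.6, 12.1 and 12.3 FPKM on PD14, 15.4, 15.3 and 13.8 FPKM on PD15 and 13.4, 13.8 and 15.1 FPKM on PD16. All 6 libraries of PD15 and PD16 exceeded those of PD14, and PD15 and PD16 overlapped. The mean went from 12.3 ± 0.264 FPKM on PD14 to 14.8 ± 0.882 FPKM on PD15 (SD, n = 3), a difference of 20.4%, and was 14.1 ± 0.89 FPKM on PD16. The log2 differences from PD14 were 0.25 ± 0.06 on PD15 (SE, 95% interval 0.11 to 0.39, adjusted p = 0.123) and 0.18 ± 0.06 on PD16 (0.04 to 0.32, adjusted p = 0.127) in limma. These were the lowest adjusted p-values of any member in these comparisons, and voom gave 0.0987 and 0.125.

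The annotated start of Bcl2l1 coincides with the start site of the third of its RefSeq promoter windows, each of which runs from 250 bases before to 49 bases after a start site. It is shown since Bcl2l1 had the lowest adjusted p, from the minus strand of GRCm38.p6 at chr2:152831679-152831978. No capitals are set, because neither of the motifs described with Bax and Bbc3 is in it.
Bcl2l1 window 3: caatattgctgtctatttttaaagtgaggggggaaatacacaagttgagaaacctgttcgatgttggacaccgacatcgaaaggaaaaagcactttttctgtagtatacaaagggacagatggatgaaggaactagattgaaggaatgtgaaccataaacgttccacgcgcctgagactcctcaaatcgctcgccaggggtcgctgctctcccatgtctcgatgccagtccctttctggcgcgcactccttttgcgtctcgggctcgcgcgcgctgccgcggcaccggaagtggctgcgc

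The GC content of this window is 52.3%, against a range of 49.3% to 78% in the 13 windows found for 8 members. The median of these windows was 65.7%, against 52.7% over all 32851 windows supplied. No window was matched for Pmaip1 and Trp63.

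Bcl2 (chr1:106538178-106714274, minus strand), the founding survival gene of the family, was lower than Mcl1 and Bcl2l1 in every library. Its FPKM was 3.52, 3.17 and 2.76 on PD14, 3.08, 3.24 and 3.58 on PD15 and 2.70, 3.13 and 3.62 on PD16. The 3 days overlapped fully, and the spread within PD16 (SD 0.464 FPKM) exceeded every difference between day means. The log2 change of PD15 against PD14 was 0.05 with a 95% interval of -0.18 to 0.28. For PD16 against PD14 it was 0.00 with an interval of -0.23 to 0.23, and its sign turned with single libraries left out, as did that of both other comparisons.

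Of the pore-forming genes, Bax (chr7:45461697-45466898, minus strand) was at 25.5, 28.4 and 27.9 FPKM on PD14, 27.6, 23.4 and 26.5 FPKM on PD15 and 31.1, 29.7 and 26.2 FPKM on PD16. The PD16 libraries reached highest, but the third replicate lay within the range of the other days. Against PD15, PD16 differed by 0.16 ± 0.08 on the log2 scale (SE, 95% interval -0.03 to 0.35), with an adjusted p of 0.431 in limma. With single libraries left out, this difference ran from 0.09 to 0.23.

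Bax is a known target of p53, and the p53 half-site (a palindrome of 10 bases, searched on both strands) matched its RefSeq promoter window once, beginning at position -201 from the start site. The 90 bases around the match are shown from the minus strand of GRCm38.p6 at chr7:45467050-45467139, with the match in capitals. A match occurs in 8.36% of all 32851 windows and in 1 of the 13 windows of the members. It is a match of letters only.
Bax window 1: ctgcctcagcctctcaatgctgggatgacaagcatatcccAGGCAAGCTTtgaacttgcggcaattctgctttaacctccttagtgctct

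Bak1 (chr17:27019810-27029009, minus strand), whose product sits in the outer mitochondrial membrane, was at 19.1, 18.6 and 19.0 FPKM on PD14. It was at 17.7, 16.4 and 16.0 FPKM on PD15 and 17.1, 18.0 and 16.6 FPKM on PD16. All PD15 and PD16 libraries lay below the lowest PD14 library, and PD14 had the narrowest spread (18.9 ± 0.257 FPKM, SD, n = 3). The mean was 11.6% lower on PD15 (16.7 ± 0.914 FPKM), with a log2 difference of -0.17 ± 0.06 (SE, 95% interval -0.29 to -0.04, adjusted p = 0.204, limma). For PD16 (17.2 ± 0.686 FPKM) the log2 difference from PD14 was -0.13 ± 0.06, with an adjusted p of 0.216 in limma. Exons of Bak1 share 437 bases with Ggnbp1 on the opposite strand, which had a mean of 1.60 FPKM. Whether fragments were counted by strand is not given in the sources used here, so the fragments of the shared bases cannot be told apart.

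To describe the balance of both classes, the FPKM of the survival genes and of the pore-forming genes were summed in each library. The survival sum ran from 64.2 to 67.6 FPKM on PD14, 66.6 to 68.0 FPKM on PD15 and 70.3 to 72.3 FPKM on PD16. Mcl1 made up 72.2% to 77.7% of it in all 9 libraries, and Bcl2l1 18.4% to 18.8% on PD14, 20.3% to 22.9% on PD15 and 18.6% to 20.9% on PD16. Mcl1 thus was the main survival transcript among the 3 members on each day, and Bcl2 contributed 3.74% to 5.26%.

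The sum of Bax and Bak1 was 44.6 to 47.0 FPKM on PD14, 39.8 to 45.3 FPKM on PD15 and 42.8 to 48.1 FPKM on PD16. Bax took 57.2% to 60.4% of it on PD14, 58.8% to 62.4% on PD15 and 61.1% to 64.5% on PD16. The PD14 and PD16 ranges of this share did not overlap. The log2 ratio of the pore-forming to the survival sum was -0.52 ± 0.08 on PD14, -0.67 ± 0.08 on PD15 and -0.63 ± 0.11 on PD16 (SD, n = 3). The differences from PD14, -0.15 on PD15 and -0.11 on PD16, exceeded the pooled SD of 0.09, although the libraries of the days overlapped. With single libraries left out, the difference ran from -0.19 to -0.11 for PD15 and from -0.15 to -0.05 for PD16, where it was under the pooled SD without replicate 3 of PD16 (-0.05) or replicate 2 of PD14 (-0.08). The ratio also depends on the genes summed. With Bcl2l10, Bcl2l2, the Bcl2a1 copies and Bok, relatives of both classes, added to the sums (chosen after seeing the data), it was -0.80 ± 0.19 on PD14, -0.96 ± 0.16 on PD15 and -0.72 ± 0.14 on PD16. The difference from PD14 was then -0.16 on PD15 and 0.07 on PD16, both under its pooled SD of 0.163, with the direction turned for PD16. PD16 against PD15 then differed by 0.23, above that SD, whereas the members alone gave 0.03. The log2 ratio of Bax to Bcl2, a common index in the field, was 3.12 ± 0.24 on PD14, 2.97 ± 0.17 on PD15 and 3.21 ± 0.34 on PD16, and differences between the days were smaller than the pooled SD of 0.26. These differences rest on single libraries. With 1 library left out they ran from -0.28 to -0.04 for PD15 against PD14, -0.07 to 0.27 for PD16 against PD14 and 0.08 to 0.42 for PD16 against PD15. The sign for PD16 against PD14 turned without replicate 1 of PD14 (-0.04) or replicate 1 of PD16 (-0.07). All of these are ratios of transcripts, and they were described without a test.

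**Figure D3:**
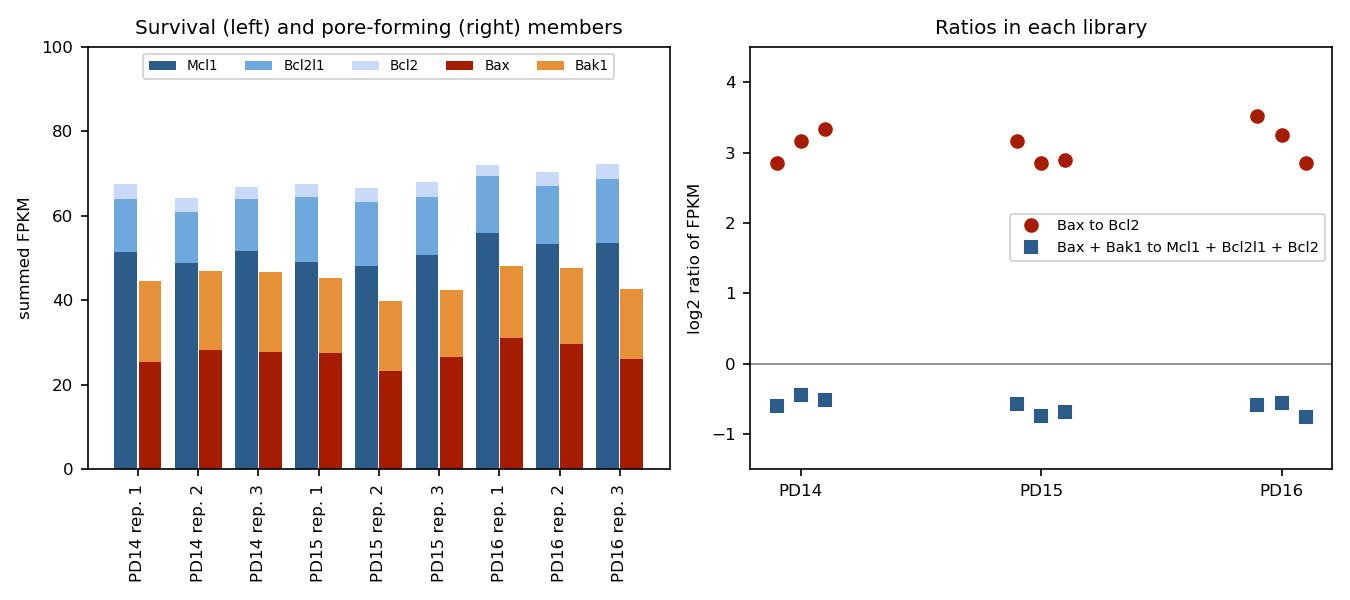
The left panel stacks the FPKM of the survival genes (left bar) and of the pore-forming genes (right bar) in each library, from 0, and the right panel plots 2 log2 ratios of FPKM by day with 1 point a library. The survival bar is taller than the pore-forming bar in all 9 libraries, with Mcl1 as its largest piece, and the Bax to Bcl2 ratio overlaps between days.

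BH3-only proteins start the mitochondrial pathway. Bcl2l11 (chr2:128126038-128162547, plus strand) encodes Bim, which binds all survival proteins. Its FPKM was 3.23, 3.21 and 2.80 on PD14, 3.29, 3.36 and 3.33 on PD15 and 3.14, 3.94 and 3.45 on PD16. PD15 lay just above PD14 with no overlap, while PD16 overlapped with both. The log2 change was 0.09 for PD15 against PD14 (95% interval -0.10 to 0.27, adjusted p = 0.668, limma). For PD16 against PD14 it was 0.14 (-0.04 to 0.32, adjusted p = 0.331, limma). With single libraries left out, these changes ran from 0.03 to 0.11 and from 0.07 to 0.20.

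Bbc3 (chr7:16308393-16318205, plus strand) encodes Puma, a target of p53 and p63. It was at 1.92, 1.95 and 2.15 FPKM on PD14, 1.20, 1.52 and 1.69 FPKM on PD15 and 1.70, 1.68 and 1.89 FPKM on PD16. Every PD15 and PD16 library lay below the lowest PD14 library, and PD15 held the lowest values. The mean was 2.01 ± 0.125 FPKM on PD14 and 1.47 ± 0.247 FPKM on PD15 (SD, n = 3), which is 26.7% lower. The log2 difference was -0.29 ± 0.10 (SE, 95% interval -0.50 to -0.07), with an adjusted p of 0.211 in limma. The pseudocount of 1 compresses the change of such a low gene, and voom on the recovered fragments gave -0.45 with an adjusted p of 0.232. Only 65 to 103 fragments per library stand behind these values, and the counting error is up to 12.4%.

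FOXO factors, which growth factor signals hold out of the nucleus, are known to induce Bcl2l11 and Bbc3. The letters TGTTTAC, a core bound by FOXO factors, were searched on both strands of the promoter windows and occurred in 3.65% of all windows and in 2 of the 13 windows of the members. These were the second of the Bbc3 windows, at position -167 from its start site, and the first of the Bcl2l11 windows, at position -227, where the reverse complement is found. Both are shown from the plus strand of GRCm38.p6 with the match in capitals, Bbc3 at chr7:16310011-16310310 and Bcl2l11 at chr2:128125788-128125857. The match is a description of these letters, and no binding was measured.
Bbc3 window 2: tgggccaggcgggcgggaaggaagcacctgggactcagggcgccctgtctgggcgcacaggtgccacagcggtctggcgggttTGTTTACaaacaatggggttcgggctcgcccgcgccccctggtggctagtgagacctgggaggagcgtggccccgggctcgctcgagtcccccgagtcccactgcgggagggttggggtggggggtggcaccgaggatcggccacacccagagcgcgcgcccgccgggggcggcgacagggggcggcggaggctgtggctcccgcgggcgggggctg
Bcl2l11 window 1: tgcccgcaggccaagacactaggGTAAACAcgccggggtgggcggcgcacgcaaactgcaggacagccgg

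Pmaip1 (chr18:66458533-66465565, plus strand) encodes Noxa, which binds Mcl1. It had only 15 to 35 fragments in a library, and its FPKM was 0.308, 0.235 and 0.427 on PD14, 0.341, 0.349 and 0.224 on PD15 and 0.397, 0.400 and 0.520 on PD16. PD16 lay above PD15 without overlap, with an exact permutation p of 0.1, which is the smallest this design allows, and PD14 overlapped with both. The PD16 mean was 43.9% above that of PD15 and 35.7% above that of PD14, beside a counting error of 16.9% to 25.8% in a single library.

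Fas (chr19:34290666-34327772, plus strand) is the receptor of Fas ligand. Its FPKM was 1.45, 1.08 and 1.25 on PD14, 0.960, 1.07 and 1.08 on PD15 and 1.45, 1.10 and 1.20 on PD16. The first replicate was highest on PD14 and PD16, and PD15 lay just below PD16 without overlap. The log2 change of PD16 against PD15 was 0.14 (95% interval -0.10 to 0.38, adjusted p = 0.613, limma), on 44 to 64 fragments per library. It ran from 0.08 to 0.19 with single libraries left out, and voom on the recovered fragments gave 0.26. Fasl, its ligand, had a mean of only 0.00881 FPKM.

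Trp63 (chr16:25683763-25892102, plus strand) was at 2.71, 3.02 and 2.82 FPKM on PD14, 2.83, 3.06 and 2.67 FPKM on PD15 and 2.78, 2.47 and 2.64 FPKM on PD16. The days overlapped, and the log2 change of PD16 against PD14 was -0.09 with a 95% interval of -0.25 to 0.08. With single libraries left out, this change ran from -0.12 to -0.05. That of PD15 against PD14 was 0.00, with an interval of -0.16 to 0.16. Trp63 is also known as a gene of basal keratinocytes, whose keratins Krt5, Krt14 and Krt15 were at or below 0.167 FPKM in all 9 libraries. Oocyte markers were lower on PD16 than on PD15 in 12 of 12 cases, with a median log2 change of -0.28, against -0.09 for Trp63. On PD15 against PD14, 9 of 12 were higher, with a median of 0.18 against 0.00 for Trp63, and on PD16 against PD14, 9 of 12 were lower, with a median of -0.25 against -0.09. The part of either cell type in the level of Trp63 was not tested.

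The pathway around the members was described from 8 lists of related genes. In the lists of other survival, pore-forming and BH3-only genes, no gene differed between days at an adjusted p under 0.05 in limma. Of their 9 tested genes, 2 had an unadjusted p under 0.05 for PD15 against PD14, and 1 for PD16 against PD14 and for PD16 against PD15. The shares over all tested genes were 14.7%, 22.8% and 14.1% in these comparisons. Bcl2l10, a survival gene known from oocytes, had the highest level of them with 66.3 FPKM, above Mcl1. Its log2 change was 0.23 for PD15 against PD14 and -0.32 for PD16 against PD15, with adjusted p-values of 0.292 and 0.165. The median oocyte marker changed by 0.18 and -0.28 in these 2 comparisons. The part of oocytes in the level of Bcl2l10 was not tested.

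Bok, a pore-forming relative of Bax, was at 29.5 to 44.3 FPKM, and Bcl2l2, which encodes Bcl-w, at 11.9 to 15.1 FPKM. Bnip3l and Bnip3, which act in mitophagy, had means of 53.9 and 18.0 FPKM. The mouse Bcl2a1 copies were close to 0, with 0.0724 to 0.215 FPKM, and reads of such near-identical copies may have been split between them. Hrk, with 0.0310 FPKM, was close to 0 as well.

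The 7 genes of the apoptosome and the executioner caspases and the 7 caspase inhibitors and their antagonists were all tested, and none was called in any comparison. At an unadjusted p under 0.05, the caspase list had 0, 3 and 2 of 7 genes (PD15 against PD14, PD16 against PD14, PD16 against PD15). The inhibitor list had 1 of 7 in each comparison. Of all tested genes, 14.7%, 22.8% and 14.1% passed this threshold in the same order. Cycs, the gene of cytochrome c, had a mean of 24.7 FPKM and, among the inhibitors, Birc5 25.9 FPKM and Xiap 16.8 FPKM. Cycs and Birc5 were thus close in level to Bax, with its mean of 27.3 FPKM, although Apaf1, the scaffold of the apoptosome, was at 4.24 to 5.11 FPKM.

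Of the 13 death ligands, receptors and adaptors, 11 were tested and 1 was called, on PD16 against PD14, where 4.25% of all genes were. At an unadjusted p under 0.05, the list had 3, 1 and 0 of 11 genes in the order of comparisons above, beside 14.7%, 22.8% and 14.1% of all genes. Tnfrsf1a, the main receptor of tumour necrosis factor, fell by 0.26 on the log2 scale on PD16 against PD14 (SE 0.06, adjusted p = 0.0384, limma). Its FPKM was 34.6, 34.5 and 37.4 on PD14, 30.0, 29.5 and 29.1 on PD15 and 29.7, 30.9 and 28.0 on PD16, so that all later libraries lay below those of PD14. The change on PD15 was of the same size (-0.26) with an adjusted p of 0.0862. Leaving out single libraries moved the adjusted p for PD16 to between 0.0458 and 0.127, and the call did not hold without any one PD14 or PD16 library, nor without replicate 1 or 2 of PD15. It held in 7 of 19 alternative fits, and was also lost without a filter (adjusted p = 0.0678), without the trend (0.0541), with only the 2 days compared (0.0768) and with the replicate block (0.0926). Casp8 had a mean of 10.3 FPKM and Tnf of 0.0460 FPKM.

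In the list of the p53 family and the damage kinases, 9 of 10 genes were tested and none was called. At an unadjusted p under 0.05, it had 3 genes for PD15 and 3 for PD16 against PD14, and 0 for PD16 against PD15, beside 14.7%, 22.8% and 14.1% of all genes. The log2 change was above 0 for 8 of 9 genes on both PD15 and PD16 against PD14, with medians of 0.16 and 0.11 beside 0.01 for all genes. Trp53 was at 28.1 to 33.7 FPKM and Mdm4, an inhibitor of p53, at 18.2 to 23.5 FPKM. Trp73 had a mean of 0.176 FPKM, so that Trp63 was between its relatives in level.

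The 18 known p53 target genes, which include Bax, Bbc3, Pmaip1 and Fas, gave the called genes of the p53 branch, with 17 tested. On PD15 against PD14, 1 rose and 1 fell, and on PD16 against PD14, 2 rose and 1 fell. On PD16 against PD15 none was called. Over all tested genes, 0.678%, 4.25% and 0.729% were called in these comparisons. At an unadjusted p under 0.05, the list had 8 of 17 genes for PD15 against PD14, 5 for PD16 against PD14 and 3 for PD16 against PD15, beside 14.7%, 22.8% and 14.1% of all genes. The highest levels after Bax were those of Ei24 with 23.3 FPKM and Ccng1, which encodes cyclin G1, with 20.3 FPKM.

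Perp, a membrane protein of desmosomes and an effector of p53 and p63, rose on both days against PD14. Its FPKM was 5.69, 4.75 and 4.88 on PD14, 11.9, 8.20 and 13.5 on PD15 and 14.2, 9.86 and 12.9 on PD16. Every later library was above all PD14 libraries, and the second replicate was lowest on each day. The log2 change was 0.98 ± 0.17 on PD15 (SE, adjusted p = 0.0456) and 1.11 ± 0.17 on PD16 (adjusted p = 0.0148) in limma. With single libraries left out, the adjusted p ran from 0.0399 to 0.158 for PD15 and from 0.0117 to 0.0597 for PD16, the latter above 0.05 only without replicate 3 of PD14 or replicate 1 of PD16. The call held in 8 of 19 alternative fits for PD15 and 16 of 19 for PD16. That for PD15 was also lost without a filter (adjusted p = 0.139), without the trend (0.0576), with limma's robust setting (0.0503) and with only the 2 days compared (0.0699), and that for PD16 without a filter (0.0508). The summed markers of the surface and oviduct epithelium were at 20.3 to 27.2 FPKM on PD14, 19.3 to 24.0 FPKM on PD15 and 17.1 to 21.8 FPKM on PD16. Krt19 of this list fell by 0.42 on the log2 scale on PD16 against PD14 (adjusted p = 0.0335, limma). The part of these cells in the level of Perp was not tested.

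Eda2r, a receptor of the ectodysplasin pathway, rose on PD16 by 0.56 ± 0.08 on the log2 scale (SE, adjusted p = 0.0132, limma). Its FPKM was 2.90, 2.85 and 2.84 on PD14, 3.51, 3.38 and 3.65 on PD15 and 5.42, 4.66 and 4.12 on PD16. The libraries of the 3 days did not overlap, with PD15 between the others. The adjusted p was 0.0519 without replicate 3 of PD14, and with any other library left out it was under 0.05.

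Btg2, an antiproliferative target of p53, fell on PD15 by 0.40 ± 0.07 (SE, adjusted p = 0.0498) and on PD16 by 0.33 ± 0.07 (adjusted p = 0.0375) on the log2 scale in limma. It was at 7.45, 6.73 and 7.12 FPKM on PD14, 5.16, 5.38 and 4.89 FPKM on PD15 and 5.62, 5.83 and 4.86 FPKM on PD16. All later libraries lay below those of PD14, but the call for PD15 held in only 2 of 19 alternative fits and that for PD16 in 8 of 19. The called p53 targets thus moved in both directions, and Bax, Bbc3 and Fas were not among them. Of the 17 tested targets, 6 were higher and 11 lower on PD15 than on PD14 (median log2 change -0.12), 8 higher and 9 lower on PD16 than on PD14 (-0.01), and 15 higher and 2 lower on PD16 than on PD15 (0.15), beside medians of 0.01 for all genes.

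**Figure D4:**
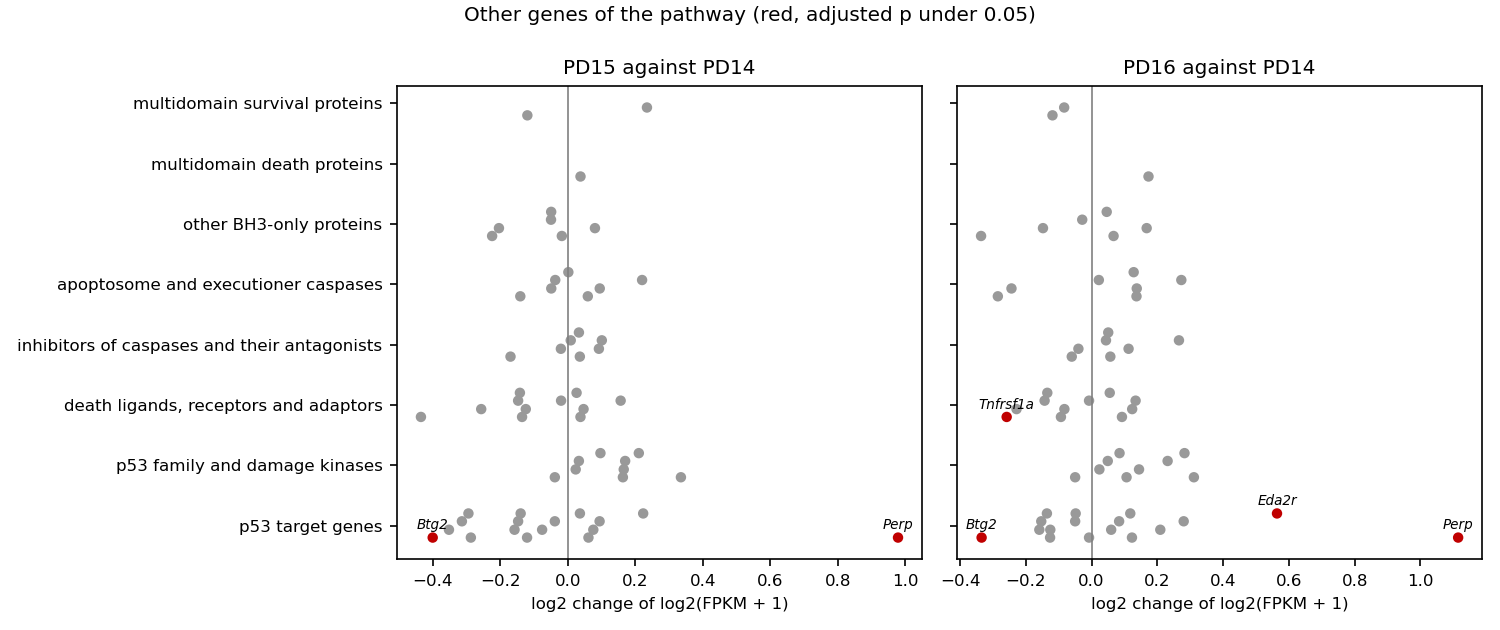
Each point is the log2 change of log2(FPKM + 1) of 1 tested gene of a list on PD15 (left) or PD16 (right) against PD14, and red points with names have an adjusted p under 0.05 in limma. Perp lies farthest from 0 in both panels, at 0.98 and 1.11, and most genes of the lists lie close to 0 beside it.

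The likeness of other genes to each member was measured by Pearson's r of log2(FPKM + 1) over the 9 libraries, among the 15495 tested genes. The points are libraries of 3 days and share day, depth and cell makeup, and the highest of so many values are high in any case. The gene most like Bbc3 was Fzd4 (r = 0.99), most like Bcl2l1 Ube2ql1 (r = 0.97) and most like Mcl1 Mfsd14a (r = 0.97). For Trp63 it was Sh3d19, for Pmaip1 Cyp1b1 and for Fas Nmnat1 (r = 0.95 each). Among the 45 pairs of members, r ran from -0.75 (Bcl2l1 and Bbc3) to 0.67 (Mcl1 and Fas).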

How the data were processed

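The authors sequenced ovary RNA of 9 samples, with libraries from the NEBNext Ultra kit, and deposited FPKM in 1 table for each library. The submitters' processing notes name HISAT2 2.0.5 and mm10. The counting tool and its strand setting are not given in the sources used here. FPKM was used as deposited. The members and lists were chosen with earlier results of these data known.

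Genes averaging more than 1 FPKM on any day (15495 of 52025) were tested on log2(FPKM + 1), a scale that understates changes of low genes, with limma 3.58.1 in R 4.3.3 (all 9 libraries, intensity trend, Benjamini-Hochberg adjustment over all genes tested, threshold 0.05). Single members were also compared by exact permutation tests, two-sided. The FPKM steps gave whole fragments, within 0.01, in all libraries for 99.9% of tested genes (15486), and these entered voom as an alternative chosen after seeing the data. Depth was 20.4 to 28.7 M fragments, and counting errors cover counting only. No 2 libraries held identical values.

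The genes named were the 10 members, the called genes of each pathway list (at most 5), the 2 genes of each list with the highest level, and the genes most like each member. Others were named after their values were seen. The values of 2 genes that this rule names are not reported here. Coordinates are those of GENCODE M21 (GRCm38, which is mm10), and promoter sequences those of RefSeq on GRCm38.p6. Alternatives were pseudocounts of 0.1 and 0.5, other filters, median-ratio scaling, limma without trend or robust, only the 2 days compared, a replicate block and each library left out. The fit was tested on simulated data. Python 3.11.15, NumPy 2.4.6, pandas 2.3.3 and Matplotlib 3.10.9 were used.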

Additional observations from a re-analysis of the deposited data

How the results depend on the processing

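No member passed an adjusted p of 0.05 in any of the 498 alternative fits of the 27 member comparisons, and the lowest adjusted p was 0.0987 (Bcl2l1, voom, PD15 against PD14). The sign turned in 13 of these fits, which belong to 6 comparisons with changes near 0. With single libraries left out, the log2 change ran from -0.0150 to 0.117 for Bcl2 on PD15 against PD14, -0.0837 to 0.0778 on PD16 against PD14 and -0.138 to 0.0238 on PD16 against PD15. It ran from -0.0389 to 0.0353 for Trp63 on PD15 against PD14 (-0.00427 with voom), -0.0697 to 0.0516 for Fas on PD16 against PD14 and -0.0113 to 0.116 for Bcl2l11 on PD16 against PD15. Counts over all genes moved more. For PD15 against PD14, the 105 called genes became 29 without a filter, 63 above an FPKM of 5, 46 with only the 2 days compared and 201 with voom, and 3 to 92 with single libraries left out. For PD16 against PD14, the 659 became 172 without a filter, 323 with only the 2 days compared and 92 to 660 with single libraries left out. For PD16 against PD15, the 113 became 24 without a filter, 211 with voom and 14 to 125 with single libraries left out. The cause of these shifts was not tested. The labels do not say whether the replicate number pairs the libraries. The correlation of same-numbered deviations from the day means was -0.21 to 0.16 and above 0.1 in 2 of 9 pairs. Libraries with different numbers gave -0.20 to 0.21. With 3 libraries a day, such correlations cannot decide whether the libraries were paired. With the replicate block, 24, 227 and 56 genes were called (PD15 against PD14, PD16 against PD14, PD16 against PD15), and no member. Depth limits Pmaip1, Fas and Bbc3, whose fragments per library stayed at or below 35, 64 and 103.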
